A study of Homo sapiens with 12 samples.

Results

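The active Notch culture of wild-type (WT) DAOY cells was set against the other WT cultures of the same experiment. DAOY is a human medulloblastoma cell line, grown here in DMEM with serum. The active culture was grown on plates coated with the Notch ligand Jagged1, with the solvent DMSO and no inhibitor. The 3 other WT cultures were grown on Fc-coated control plates with DMSO, which the labels call the steady state, on Fc plates with DAPT, and on Jagged1 plates with DAPT. DAPT, given for 12 h, inhibits γ-secretase, the protease complex that frees the intracellular domain of Notch. These are 4 of the 12 libraries of the series, chosen by the labels for genotype, plate and treatment. The remaining 8 came from the DAOY lines NOTCH1KO and NOTCH2KO, made by targeting either receptor gene with CRISPR/Cas9, each grown in the same 4 cultures. There was 1 library for each culture of each genotype, so the WT values are 1 library against 3, with no replicate of the active culture and no p-value. A library was made from the poly-A RNA of a whole culture, so that a change in all cells and a change in a few of them cannot be told apart.

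Notch receptors are cut when a ligand on a neighbouring surface pulls on them. First an ADAM protease sheds the outer part, and then γ-secretase releases the intracellular domain, which moves to the nucleus, binds the DNA-binding protein CSL (encoded by RBPJ) with a Mastermind coactivator, and turns on targets such as the HES and HEY repressors. Plate-bound Jagged1 supplies the ligand, and DAPT stops the last cut, so that only the Jagged1 culture without DAPT had both plate-bound ligand and uninhibited protease. The Fc DMSO culture had uninhibited protease too, and its cells had 46.9 TPM of JAG1 of their own. It is therefore not a culture without Notch signalling by design. Jagged1 signalling through Notch is known in vessel walls for NOTCH3 and PDGFRB expression in mural cells, and in many cell types it is known to raise transcripts of JAG1 itself.

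The WT libraries held between 18.3 and 20.8 M reads, and each read on a 1 kb gene added between 0.102 and 0.113 TPM, the transcript unit of the deposited tables, corrected for gene length and library size. Of 63677 gene identifiers, 17621 had a mean TPM of at least 1 over the 12 libraries and were tested. Values were compared as log2(TPM + 1), which understates the change of low genes. The margin of a gene is the distance of the active WT culture from the nearest of the 3 other WT cultures on that scale, above their highest or below their lowest, and the difference is the active culture minus the mean of the 3. Correlations across genes between the active culture and the others were between 0.956 and 0.964, and no pair of libraries was identical. The active culture lay above the range of the others for 5632 genes, or 32.0% of those tested, below it for 5001 genes (28.4%), and within it for 6988. The median difference over all tested genes was 0.01. A margin of 1, a change of 2-fold in TPM + 1, was reached upward by 168 genes (0.953%) and downward by 134 (0.760%). Just inside that margin stood TNFAIP6 at 1.001 upward and ARRDC1 at -1.002 downward, and just outside it CPQ at 0.997 and LY6E at -0.98. Most genes outside the range lay close to it, with margins under 0.25 for 3829 of the genes above and 3241 of those below, while 35 and 30 genes had margins of 2 or more. The shares of all tested genes are the background for the counts given below.

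The 4 genes that mark Notch activity, HEY1, NOTCH3, JAG1 and HES1, were all higher in the active culture than in any other WT culture. HEY1, a repressor switched on by Notch, had 56.6 TPM in the active culture, against 11.5 in Fc DMSO, 7.50 in Fc DAPT and 10.9 in Jagged1 DAPT. The receptor gene NOTCH3 (GRCh37, chr19:15270444-15311792) had 16.2 TPM in the active culture, against 1.72, 0.126 and 0.144 in the same order of the others. JAG1 (chr20:10618332-10654694), the gene for the ligand itself, had 144 TPM in the active culture, against 46.9 in Fc DMSO, 14.3 in Fc DAPT and 19.0 in Jagged1 DAPT. JAG1 overlaps another listed gene on the same strand. In all 3 the active culture stood clear of the other cultures, and the steady state came second. HES1 (chr3:193853934-193856521), the classical target in most tissues, had 83.6 TPM in the active culture, against 47.0 in Fc DMSO, 23.9 in Fc DAPT and 31.8 in Jagged1 DAPT. The margins were 2.66 for NOTCH3, 2.20 for HEY1, 1.60 for JAG1 and 0.82 for HES1, so that HES1 lay outside the range but under the 2-fold margin. The labels of the 4 cultures thus went with the levels of these genes, which the choice of libraries had not used.

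The proximal promoters of HES1 and HES4 and of the collagen gene COL5A3 are shown because all of them lay above the range in the active culture and hold the hexamer TGGGAA, the core that CSL is known to bind, or its reverse complement TTCCCA. Capitals mark these letters on either strand, and the sequences end at the base before the RefSeq transcript start (GRCh38.p14).
HES1, chr3:194136028-194136147, + strand: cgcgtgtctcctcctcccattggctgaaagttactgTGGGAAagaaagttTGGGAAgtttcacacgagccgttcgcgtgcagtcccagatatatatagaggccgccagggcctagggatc
HES4, chr1:1000098-1000217, - strand: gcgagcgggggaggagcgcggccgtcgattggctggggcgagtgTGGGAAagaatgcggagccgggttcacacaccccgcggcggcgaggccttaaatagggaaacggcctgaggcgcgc
COL5A3, chr19:10010505-10010624, - strand: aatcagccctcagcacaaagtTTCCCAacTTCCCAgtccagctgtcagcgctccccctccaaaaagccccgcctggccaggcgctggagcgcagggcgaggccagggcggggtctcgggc
The 2 copies before HES1 began 84 and 70 bases upstream of the start, in the same orientation. The 1 copy before HES4 began 76 bases upstream. Before COL5A3 the reverse complement stood 99 and 91 bases upstream. Within 250 bases upstream the hexamer was found in 20.8% of all 35116 RefSeq promoters on either strand. It was in 32 of the 162 promoters (19.8%) of the 97 matched protein-coding genes that lay above by the margin, out of 127 such genes, and in 16 of the 97 promoters (16.5%) of the 62 matched genes below, out of 88. The hexamer was thus no more frequent before the genes above than before all genes. None was found in this window before NOTCH3, JAG1, PDGFRB, VCAM1, KLF9 or EPAS1, which says only that these letters are not there.

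**Figure D1:**
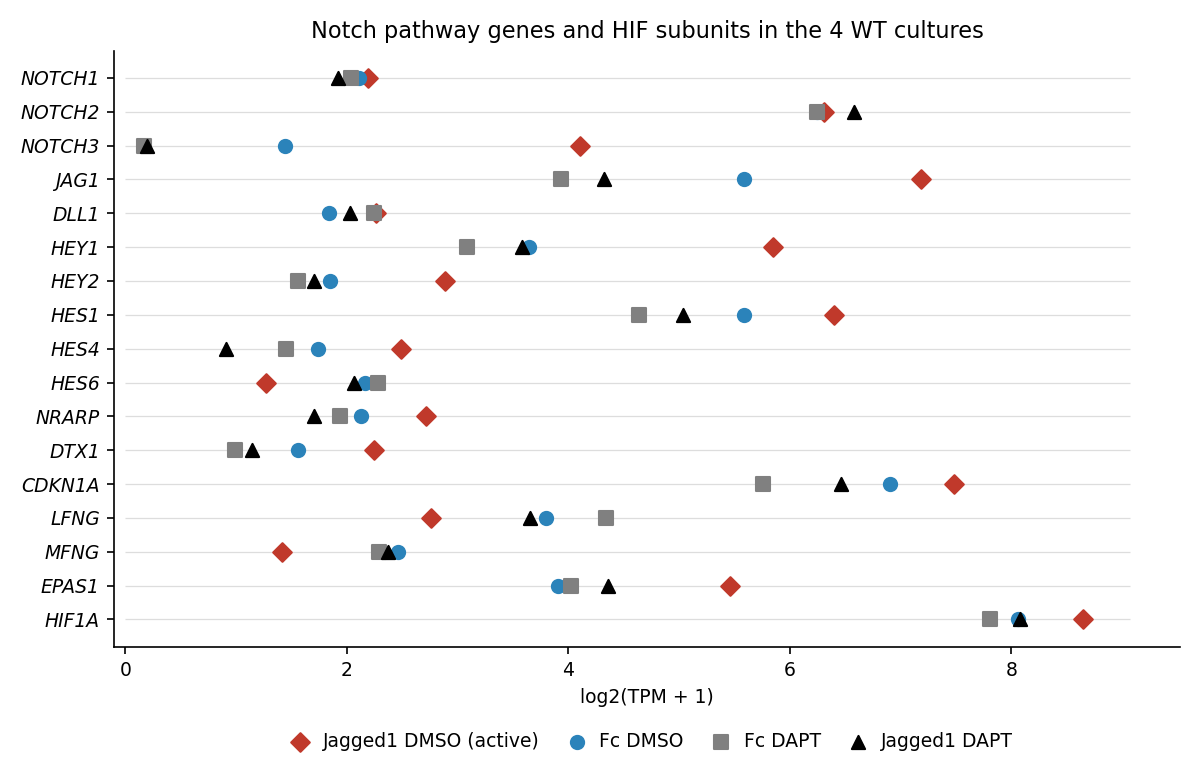
Levels of 17 Notch pathway genes and HIF subunits as log2(TPM + 1) in the 4 WT cultures, 1 library each (red diamond, Jagged1 DMSO, the active culture; blue circle, Fc DMSO; grey square, Fc DAPT; black triangle, Jagged1 DAPT). The active culture is the highest point for NOTCH3, JAG1, HEY1, HEY2, HES1, HES4, NRARP, DTX1, CDKN1A, EPAS1 and HIF1A, by little for NOTCH1 and DLL1, and the lowest for HES6, LFNG and MFNG.

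Among the receptors, the difference was in NOTCH3. NOTCH2, the most abundant receptor transcript in these cells, had 78.1 TPM in the active culture, against 74.9 in Fc DMSO, 74.9 in Fc DAPT and 94.9 in Jagged1 DAPT. NOTCH1 had 3.57 TPM in the active culture, against 3.32, 3.10 and 2.78 in the others in that order. NOTCH2 lay inside the range of the others, and the margin of NOTCH1 was 0.08. NOTCH4 missed the filter on low values, with 0.825 TPM in the active culture and between 0.0334 and 0.165 TPM in the others. On the ligand side JAG1 was the 1 member of 9 with a margin of 1. Delta-like 1 (DLL1) had 3.80 TPM in the active culture, against 2.58 in Fc DMSO, 3.74 in Fc DAPT and 3.09 in Jagged1 DAPT, a margin of 0.02. The remaining ligand genes were inside the range, below it by at most 0.12, or among the 4 members under the filter.

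Of the 12 HES and HEY repressors, 7 passed the filter on low values, and 4 of these were above the range, with HEY1 (GRCh37, chr8:80676245-80680098) and HEY2 past a margin of 1. HEY2, a relative of HEY1, had 6.40 TPM in the active culture, against 2.61 in Fc DMSO, 1.94 in Fc DAPT and 2.25 in Jagged1 DAPT. HES4 had 4.62 TPM in the active culture, against 2.35, 1.72 and 0.878 in the other cultures. HEYL, which missed the filter, had 1.35 TPM in the active culture, against 0.0923, 0.0828 and 0.0578. All were highest in the active culture, HES4 with a margin of 0.75. HES6, which is known to oppose HES1 in neural cells, went the other way, with 1.41 TPM in the active culture, against 3.48 in Fc DMSO, 3.86 in Fc DAPT and 3.17 in Jagged1 DAPT. HES5, the usual effector of neural progenitors, was listed at 0 in all 4 WT libraries.

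Of 22 other tested genes listed as Notch targets, 10 were above the range (45.5%), 6 below and 0 past a margin of 1 in either direction, and their median difference was 0.15. DTX1, the Deltex ubiquitin ligase, had 3.73 TPM in the active culture, against 1.94 in Fc DMSO, 0.987 in Fc DAPT and 1.22 in Jagged1 DAPT. NRARP, a feedback inhibitor of the Notch complex, had 5.58 TPM in the active culture, against 3.38, 2.82 and 2.25. CDKN1A, the cell cycle inhibitor p21, had 178 TPM in the active culture, against 119, 53.2 and 87.0. Each of these was highest in the active culture with the steady state second, at margins of 0.69, 0.59 and 0.58. MYC, a target in T-cell leukaemia, was inside the range, and so was CCND1.

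The machinery of the pathway differed less. LFNG and MFNG, Fringe glycosyltransferases that set which ligands a Notch receptor answers to, were below the range with margins of -0.89 and -0.87. LFNG had 5.77 TPM in the active culture, against 12.9 in Fc DMSO, 19.2 in Fc DAPT and 11.6 in Jagged1 DAPT. For MFNG the active culture had 1.67 TPM, against 4.53, 3.88 and 4.16. These were the largest differences among the 9 glycosylation genes, of which 3 were above the range and 2 below. Of the 8 γ-secretase and sheddase genes, 4 were above and 2 below, all with margins under 1: the active culture had 109 TPM of ADAM10, a sheddase, against 75.6 in Fc DMSO, 68.3 in Fc DAPT and 88.8 in Jagged1 DAPT. Among 14 nuclear cofactors, 9 were above (64.3%) and 2 below, with 0 past the margin of 1. The Mastermind coactivator MAML2 had 17.7 TPM in the active culture, against 11.6, 10.1 and 11.9, and RBPJ, which encodes CSL, had 32.1 TPM in the active culture, against 35.5, 54.4 and 60.0. Of 14 trafficking and turnover genes 11 were inside the range.

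**Figure D2:**
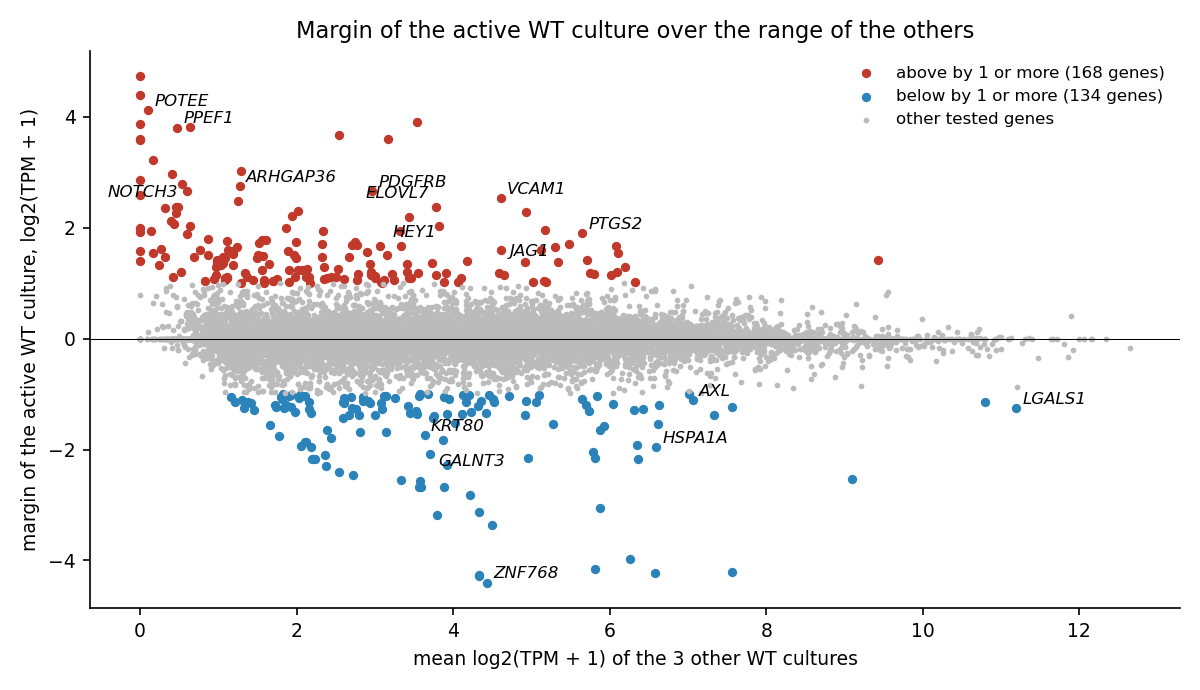
Margin of the active WT culture, in log2(TPM + 1), against the mean log2(TPM + 1) of the 3 other WT cultures, for each tested gene, with genes inside the range at 0. Red points are the 168 genes above by 1 or more and blue points the 134 below, and POTEE at 4.12 and ZNF768 at -4.40 are the outermost of the points labelled by name.

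The largest margins above the other WT cultures belonged to 15 genes named by a rule of size, clone names, small RNAs and pseudogenes aside. PPEF1, a protein phosphatase gene, had 30.9 TPM in the active culture, against 1.28 in Fc DMSO, 0 in Fc DAPT and 0.178 in Jagged1 DAPT. ARHGAP36, which is known to activate Hedgehog signalling by opposing protein kinase A, had 18.7 TPM in the active culture, against 1.92, 1.03 and 1.37. C10orf128, a transmembrane protein gene, had 12.9 TPM in the active culture, against 0.782, 0.0954 and 0.207. In all of these the other 3 cultures were under 2 TPM. PDGFRB, the receptor of PDGF-B on pericytes and fibroblasts (chr5:149493400-149535435), had 73.3 TPM in the active culture, against 10.7 in Fc DMSO, 5.28 in Fc DAPT and 5.45 in Jagged1 DAPT. The adhesion molecule gene VCAM1 (chr1:101185298-101204601) had 204 TPM in the active culture, against 28.0, 13.1 and 34.3. SFRP2, a secreted modulator of WNT signalling, had 17.8 TPM in the active culture, against 2.35, 0.640 and 1.45. These were expressed in the steady state too, and the active culture exceeded it several-fold. ELOVL7, a fatty acid elongase gene, had 83.4 TPM in the active culture, against 13.0 in Fc DMSO, 10.6 in Fc DAPT and 15.2 in Jagged1 DAPT. With NOTCH3 these make 8 of the 15. The other 7, GAGE2E, GAGE12J, POTEE, COMMD3-BMI1, PCDHGB7, NBPF11 and TVP23C-CDRT4, belong to families of near-identical copies or overlap another gene, and are described below with the uncertain features.

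Of the 168 genes above by the margin, 127 (75.6%) were protein-coding, against 71.5% of all tested genes. Another listed gene on the same strand overlapped 65 (38.7%), against 32.8% of all tested genes. Coding with no such overlap were 82, against 8392 of all 17621 tested genes. In a selection made after the values were seen, 55 coding genes without overlap, with at least 5 TPM in a WT library, kept a margin of 1 when coverage, the mean read depth per base, replaced TPM. They held several kinds of gene. Matrix and cell surface genes included COL5A3, a collagen V chain, with 39.4 TPM in the active culture, against 9.58 in Fc DMSO, 3.11 in Fc DAPT and 2.01 in Jagged1 DAPT. SDC2, the heparan sulfate proteoglycan syndecan-2, had 189 TPM in the active culture, against 59.3, 23.0 and 41.9. Both had a graded order, with the DAPT cultures lowest. Secreted and signalling genes included GREM1, the BMP antagonist gremlin, with 153 TPM in the active culture, against 38.7, 30.0 and 37.6, and TNFSF10, which encodes the death ligand TRAIL, with 197 TPM, against 59.3, 35.1 and 39.9. IGFBP5, an IGF-binding protein gene, had 41.9 TPM in the active culture, against 12.3, 3.60 and 4.16. Transcription factor genes included KLF9, a Krüppel-like factor induced by steroid and thyroid hormones, with 70.2 TPM in the active culture, against 16.5 in Fc DMSO, 9.54 in Fc DAPT and 14.1 in Jagged1 DAPT. RUNX3, a Runt factor, had 106 TPM in the active culture, against 40.1, 24.0 and 26.3. Receptor genes included the type I TGF-β receptor TGFBR1, with 117 TPM in the active culture, against 43.4, 32.3 and 44.6, and the interleukin-1 receptor IL1R1, with 28.2 TPM, against 4.99, 5.98 and 8.89. For both receptor genes the Jagged1 DAPT culture, not the steady state, came second.

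**Figure D3:**
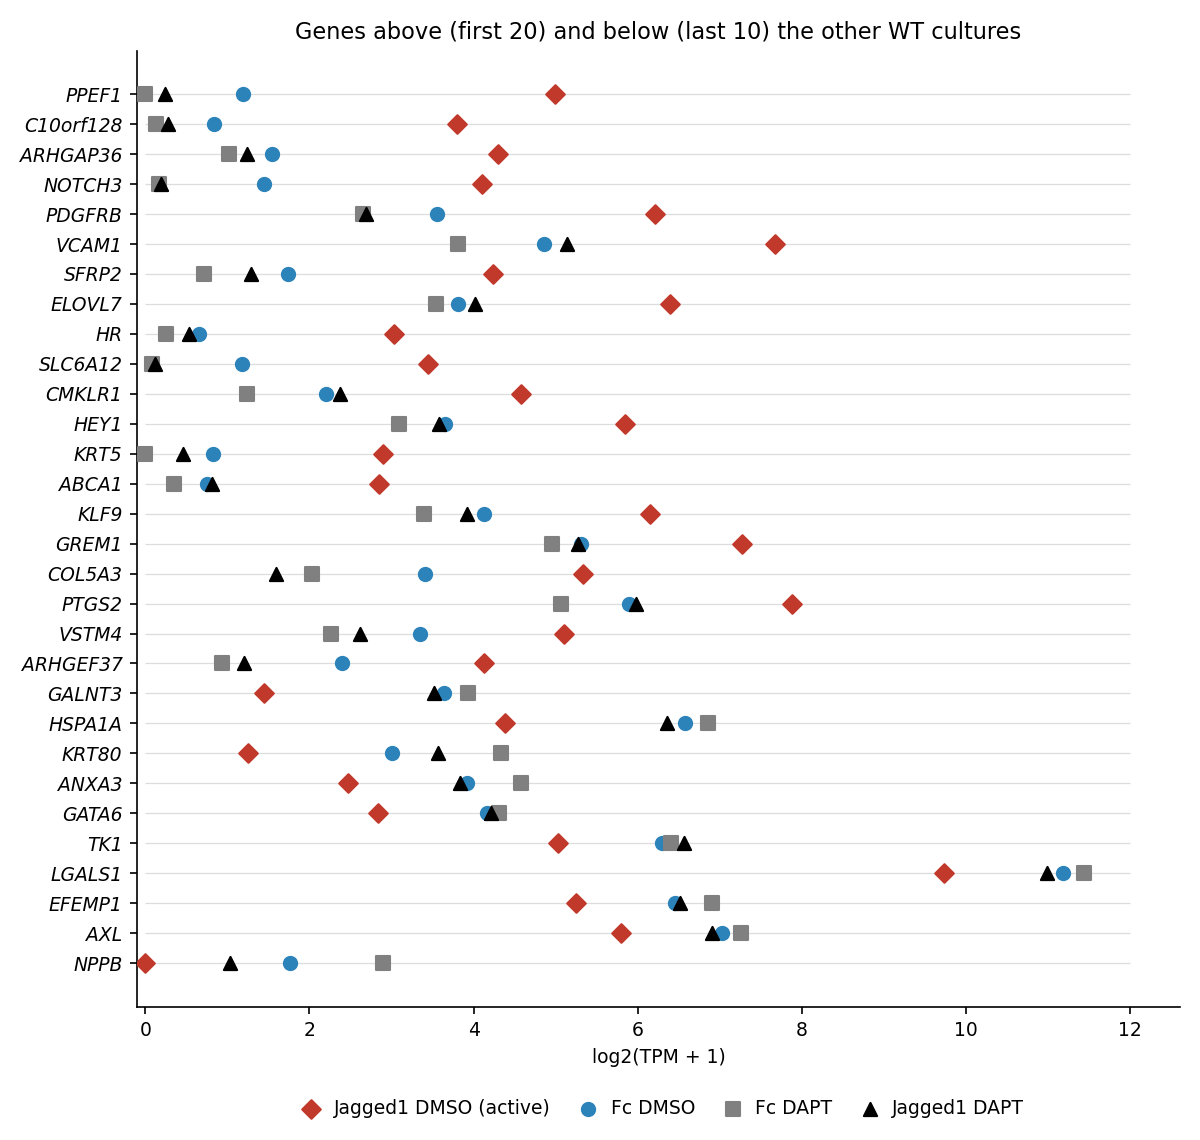
Levels as log2(TPM + 1) in the 4 WT cultures, 1 library each (symbols and colours as in the plot of Notch pathway genes), of the 20 coding genes without same-strand overlap that had the largest margins above the other cultures, GAGE12J left out (upper rows), and of 10 genes below them (lower rows), all chosen after their values were seen. In each row the active culture stands at one end, apart from the other 3.

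Genes below the other WT cultures had smaller margins once uncertain features were set aside. GALNT3, an enzyme that starts mucin-type O-glycosylation, had 1.72 TPM in the active culture, against 11.5 in Fc DMSO, 14.3 in Fc DAPT and 10.5 in Jagged1 DAPT. KRT80, an epithelial keratin gene, had 1.39 TPM in the active culture, against 7.00, 19.3 and 10.9. The heat shock gene HSPA1A had 19.9 TPM in the active culture, against 94.3, 115 and 80.6, but it has a near-identical copy, HSPA1B, between which reads can be split. The active culture was the lowest of the 4 in each. LGALS1, which encodes the abundant lectin galectin-1, had 846 TPM in the active culture, against 2312 in Fc DMSO, 2762 in Fc DAPT and 2025 in Jagged1 DAPT. AXL, a receptor tyrosine kinase gene, had 54.6 TPM in the active culture, against 129, 153 and 118. ANXA3, an annexin gene, had 4.54 TPM in the active culture, against 14.2, 22.9 and 13.2. For these and for EFEMP1, a fibulin gene with 37.1 TPM in the active culture, against 86.6, 119 and 90.6, the Fc DAPT culture was the highest. NPPB, the natriuretic peptide BNP, was listed at 0 in the active culture, against 2.39, 6.47 and 1.05 TPM. LGALS1, AXL, ANXA3, EFEMP1 and NPPB were chosen after their values were seen, from 29 coding genes without overlap that stayed below by the margin with coverage.

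Some of the largest margins belonged to features whose values switched between levels in other libraries as well. Others, such as those of ZNF768 and COMMD3-BMI1, belonged to features that stood apart in the active WT library alone. Of the 134 genes below by the margin, 25 were annotated pseudogenes, against 3049 of all 17621 tested genes. On the same strand 56 (41.8%) overlapped another gene, against 32.8% of all tested genes. In the active culture 23 were listed at 0, against 162 of all tested genes. By the rule of size the 15 largest margins below were those of ZNF768, CKLF-CMTM1, HOXC4, MEX3D, GATC, CDRT4, STAG3L5P-PVRIG2P-PILRB, PAQR4, BLOC1S2, TMEM11, GALNT3, HSPA1A, ZNF672, KRT80 and ACTN2. BLOC1S2 had 16.1 TPM in the active culture, against 86.2 in Fc DMSO, 81.1 in Fc DAPT and 76.6 in Jagged1 DAPT. Its values in the knockout libraries were 17.9, 76.1, 90.0 and 78.5 TPM in NOTCH1KO and 21.1, 89.5, 82.3 and 16.9 TPM in NOTCH2KO, in the same order of cultures. The low level thus occurred in the active culture of every genotype, and outside it in NOTCH2KO Jagged1 DAPT. MEX3D had 1.36 TPM in the active WT culture, against 20.9, 16.3 and 15.7, and had 2.60, 2.72, 2.18 and 15.8 TPM in NOTCH1KO and 16.2, 15.6, 16.2 and 1.82 TPM in NOTCH2KO. Its low level occurred in several other cultures, and not in the active culture of NOTCH2KO. Upward, GAGE2E had 25.7 TPM in the active culture and 0 in the 3 others, and 33.7 TPM in NOTCH1KO Fc DMSO alone among the knockout libraries. GAGE12J did likewise, with 20.1 and 26.3 TPM. PCDHGB7 had 38.9 TPM in the active WT culture and 25.2 TPM in NOTCH2KO Fc DAPT. NBPF11 had 5.03 TPM in the active WT culture and 8.96 TPM in NOTCH1KO Fc DAPT, and TVP23C-CDRT4 had 8.36 and 17.4 TPM there. POTEE had 18.7 TPM in the active WT culture and at most 1.19 TPM elsewhere. COMMD3-BMI1 had 13.6 TPM in the active WT culture and 0 in all other libraries. The filter on low values included the active WT culture, and POTEE and COMMD3-BMI1 passed it only through their values there. ZNF768 was listed at 0 in the active WT culture, against 20.1 in Fc DMSO, 21.4 in Fc DAPT and 20.5 in Jagged1 DAPT, and ranged from 11.7 to 19.4 TPM in the knockout libraries. With coverage in place of TPM, 126 of the 168 genes above and 86 of the 134 below kept a margin of 1. The part of read assignment in these values was not tested.

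Among gene groups, NF-κB targets and cytokines were highest in the active culture most often. Of 26 such genes tested, 21 were above the range (80.8%, against 32.0% of all tested genes), 1 was below, and 5 passed the margin of 1, with a median difference of 0.68 against 0.01 over all tested genes. Like the other lists, this one was chosen with earlier results of these data known. Its count is therefore not independent evidence of a direction. PTGS2, the inducible cyclooxygenase, had 234 TPM in the active culture, against 58.7 in Fc DMSO, 32.5 in Fc DAPT and 62.1 in Jagged1 DAPT. IL1B, the gene of interleukin-1β, had 185 TPM in the active culture, against 79.6, 54.6 and 70.2. CSF3, which encodes the granulocyte factor G-CSF, had 17.9 TPM in the active culture, against 5.79, 5.83 and 4.59. With VCAM1 and CCL20 these are the 5. IL6 had 619 TPM in the active culture, against 376 in Fc DMSO, 159 in Fc DAPT and 122 in Jagged1 DAPT, and IL11, a cytokine of the same family, had 139.9 TPM, against 92.7, 27.4 and 15.8. In both the steady state stood between the active culture and the DAPT cultures, and the margins were 0.72 and 0.59. NFKBIA, the feedback inhibitor of NF-κB, had 207 TPM in the active culture, against 184, 193 and 206. It thus counts among the 21 above the range, although by very little. Another 4 members were inside the range.

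**Figure D4:**
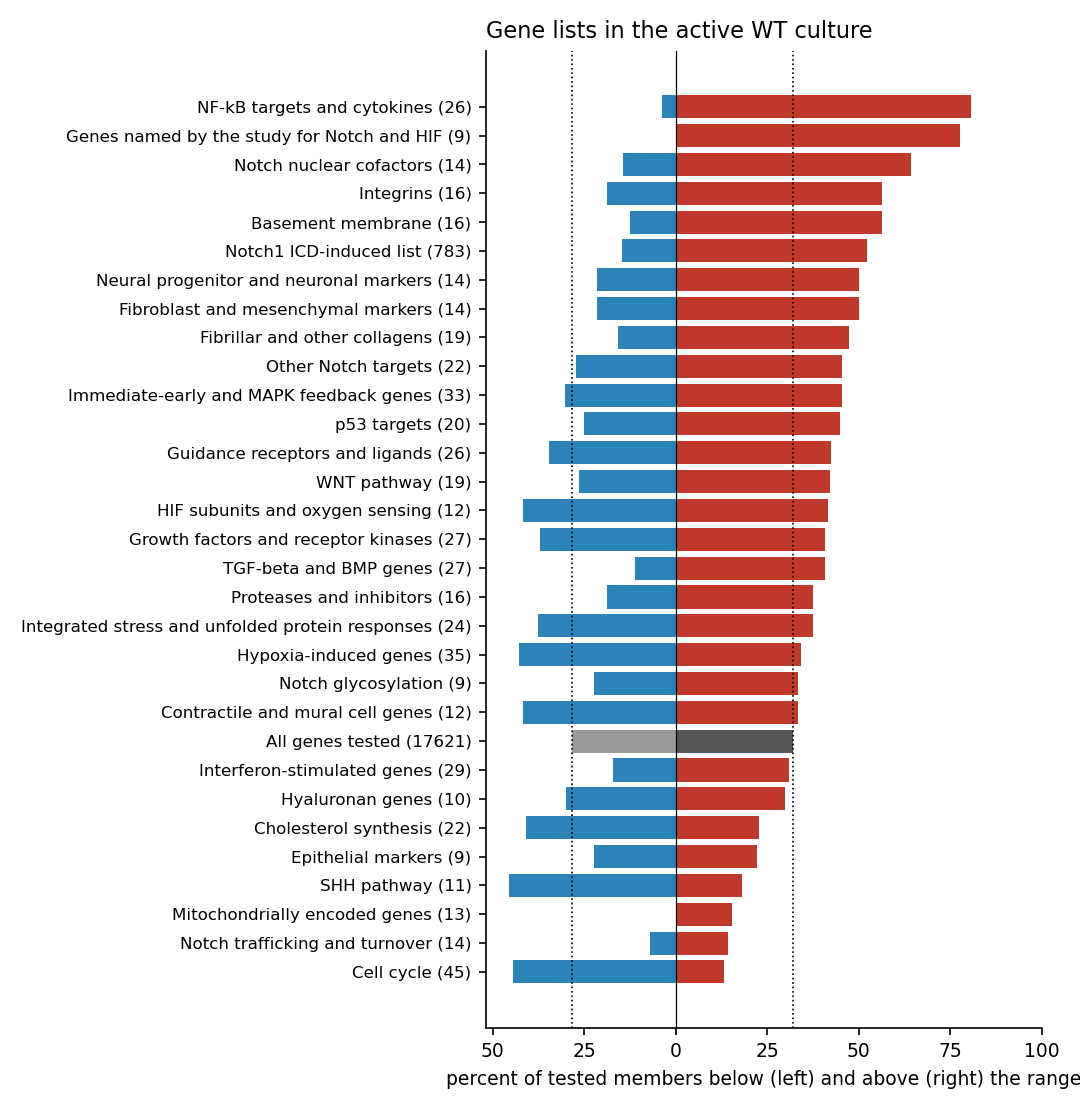
Percent of the tested members of each gene list that lay above (right, red) or below (left, blue) the range of the 3 other WT cultures in the active WT culture, for lists with at least 9 tested members (numbers in brackets). Grey bars and dotted lines give all 17621 tested genes, 32.0% above and 28.4% below; NF-κB targets and cytokines reach 80.8% above and cell cycle genes 13.3%.

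Matrix and adhesion genes were above the range more often than all tested genes too. Of 19 fibrillar and other collagens, 9 were above the range and 3 below, with a median difference of 0.39, and COL5A3 and COL3A1 passed the margin. Against the steady state alone, however, the median of this list was -0.01. Its sum was 7984 TPM in the active culture, against 8212 in Fc DMSO, 5853 in Fc DAPT and 6136 in Jagged1 DAPT. COL3A1, the chain of collagen III, had 45.7 TPM in the active culture, against 11.2 in Fc DMSO, 6.51 in Fc DAPT and 9.86 in Jagged1 DAPT. Of 16 basement membrane genes 9 were above and 2 below (median 0.22), and of 16 integrins 9 were above and 3 below (median 0.33), with 0 past the margin in both lists. ITGA1, a collagen receptor subunit, had 15.6 TPM in the active culture, against 8.09, 6.41 and 7.15. All 3 lists had more members above the range than the 32.0% of all tested genes. Of 27 TGF-β and BMP genes, 11 were above and 3 below, and GREM1, TGFBR1 and TGFB3 passed the margin. WNT pathway genes were split, with 8 of 19 above and 5 below: WNT5A, a non-canonical ligand, had 230.0 TPM in the active culture, against 113, 55.5 and 78.3, while DKK1, an antagonist, had 12.4 TPM, against 37.9, 55.0 and 22.7. Among growth factor and receptor kinase genes FLT1, a VEGF receptor, had 8.67 TPM in the active culture, against 2.43, 1.35 and 2.24, in a list with 11 of 27 above and 10 below.

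The study asked whether Notch signalling acts on the hypoxia-inducible factors, transcription factors made of an oxygen-labile α subunit and a stable partner. EPAS1, the gene of HIF2α, had 42.9 TPM in the active culture, against 14.0 in Fc DMSO, 15.2 in Fc DAPT and 19.5 in Jagged1 DAPT, a margin of 1.10. HIF1A, the gene of HIF1α, had 399 TPM in the active culture, against 266, 224 and 270.2, a margin of 0.56. Both were highest in the active culture, and for EPAS1 the steady state was no higher than the DAPT cultures. With coverage in place of TPM the margin of EPAS1 was 0.79. Of 12 tested genes for HIF subunits and oxygen sensing, 5 were above the range and 5 below, with a median difference of -0.07, and HSPA1A was past the margin downward. VHL, which marks HIF α subunits for degradation, had 10.7 TPM in the active culture, against 18.7 in Fc DMSO, 14.2 in Fc DAPT and 17.0 in Jagged1 DAPT. Of 35 genes induced by hypoxia, 12 were above the range (34.3%) and 15 below (42.9%), with 0 past the margin in either direction and a median difference of 0.04. LDHA, lactate dehydrogenase A, had 1020 TPM in the active culture, against 661, 588 and 779.6, while ENO2, an enolase, had 37.1 TPM, against 58.2, 67.3 and 58.8. The glycolytic members thus lay on both sides. A list of genes that the study named for Notch and HIF had 7 of 9 tested members above the range and 0 below. It was chosen by the study with these cells in view, and holds HEY1, NOTCH3 and EPAS1, so its count is not independent evidence of a direction.

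Cell cycle genes were below the range more often than other genes and by little. Of 45 tested, 20 were below (44.4%, against 28.4% of all tested genes) and 6 above, with a median difference of -0.07. TK1, the thymidine kinase of S phase, was the 1 member past the margin, with 31.6 TPM in the active culture, against 77.9 in Fc DMSO, 83.5 in Fc DAPT and 93.8 in Jagged1 DAPT. AURKB, a mitotic kinase, had 111 TPM in the active culture, against 162, 166 and 167. Of 22 cholesterol synthesis genes 9 were below and 5 above (median -0.17). Interferon-stimulated genes, with 9 of 29 above and 5 below, stress response genes, with 9 of 24 on each side, and p53 targets, with 9 of 20 above and 5 below, had medians between 0.03 and 0.07 and 0 members past the margin. Of 33 immediate-early and MAPK feedback genes 15 were above and 10 below. The SHH pathway had 2 of 11 tested genes above and 5 below (median -0.10), contractile and mural cell genes 4 of 12 above and 5 below (median -0.12), and guidance genes 11 of 26 above and 9 below (median 0.01). Proteases and inhibitors had 6 of 16 above and 3 below, hyaluronan genes 3 of 10 on each side, epithelial markers 2 of 9 on each side, and mitochondrially encoded genes 2 of 13 above and 0 below.

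Among markers of cell identity the lists differed. Neural progenitor and neuronal markers had 11 of 25 members under 1 TPM in all WT libraries, among them ATOH1, DCX and RBFOX3, and of the 14 tested 7 were above the range and 3 below. SOX2, a neural stem cell factor, had 11.4 TPM in the active culture, against 4.25 in Fc DMSO, 4.06 in Fc DAPT and 6.23 in Jagged1 DAPT. Summed, the neural list had 122.6 TPM in the active culture, against 138.2, 142.9 and 131.0. That sum was the lowest of the WT cultures, although SOX2 was highest in the active culture. Of 14 tested fibroblast and mesenchymal markers 7 were above the range and 3 below. The list summed to 4887 TPM in the active culture and between 4494 and 5560 TPM in the others. PRRX1, a mesenchymal homeobox gene that overlaps another listed gene on the same strand, had 18.7 TPM, against 4.95, 2.55 and 5.02. The sum was thus inside the range although PRRX1 was not. Of 14 blood and endothelial markers 5 were tested, 1 above the range and 4 below, with a median difference of -0.46. CD68, a macrophage marker, had 7.72 TPM in the active culture, against 11.7 in Fc DMSO, 11.4 in Fc DAPT and 11.3 in Jagged1 DAPT. The list summed to 64.2 TPM in the active culture and between 66.5 and 71.2 TPM in the others, with PTPRC, CD3E, PECAM1 and VWF listed at 0 in all WT libraries. Glial markers summed to 8.41 TPM in the active culture and between 7.27 and 8.24 TPM in the others, and GFAP and SOX10 were listed at 0.

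The 4 cultures allow the plate and the inhibitor to be read separately, although these differences share libraries. Over the 168 genes above by the margin, which that rule selected, the median of Jagged1 minus Fc in DMSO was 1.54 on the log2 scale and the median of DMSO minus DAPT on Jagged1 was 1.76. The median of DMSO minus DAPT on Fc, which the margin does not fix, was 0.31, against -0.02 over all tested genes. The median of Jagged1 minus Fc under DAPT was 0.17, against 0.03. Among the other 3 cultures, Fc DMSO was above both DAPT cultures for 88 of the 168 genes (52.4%), against 26.9% of all tested genes. Over the 134 genes below, Fc DMSO was below both DAPT cultures for 52 (38.8%, against 35.8% of all tested genes), and the median of DMSO minus DAPT on Fc was -0.08.

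The study also gave a list of genes induced in DAOY by a tamoxifen-activated Notch1 intracellular domain, from other libraries than these. Both the mode and the time of activation differed from those of the Jagged1 plates here. Of its 1052 distinct symbols, 993 were found in the tables and 783 passed the filter. In the active WT culture 409 of these were above the range (52.2%, against 32.0% of all tested genes), 115 were below (14.7%, against 28.4%), 69 were above by the margin of 1 (8.81%, against 0.953%) and 3 below. The median difference was 0.21. These 69 genes were 41.1% of the 168 above by the margin, and included NOTCH3, PDGFRB, VCAM1, SFRP2, ELOVL7, HEY1, HEY2, JAG1, KLF9, COL5A3 and EPAS1. GREM1, PTGS2, COL3A1 and PPEF1 were above by the margin in the active culture without being on that list.

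The same cultures of the knockout lines, which the choice of genes had not used, were read with the same rule. NOTCH1 had 0.488, 0.874, 0.278 and 0.619 TPM in NOTCH1KO, in the order Jagged1 DMSO, Fc DMSO, Fc DAPT and Jagged1 DAPT, against 3.57, 3.32, 3.10 and 2.78 TPM in WT. NOTCH2 had 60.5, 48.0, 41.6 and 52.7 TPM in NOTCH2KO, against 78.1, 74.9, 74.9 and 94.9 TPM in WT. Both targeted transcripts were lower than in WT in every culture but still present, and a gene-wide TPM does not show whether the edited part is read. Of the 168 genes above by the margin in WT, 113 (67.3%) were above the range in NOTCH1KO, where 20.5% of all tested genes were, and 92 (54.8%) in NOTCH2KO, where 37.0% were. A margin of 1 was reached by 43 of the 168 (25.6%) in NOTCH1KO, against 0.658% of all tested genes, and by 4 (2.38%) in NOTCH2KO, against 0.375%. Seen from the knockout lines, these were 37.1% of the 116 genes above by the margin in NOTCH1KO and 6.06% of the 66 in NOTCH2KO. The median difference over the 168 genes was 1.77 in WT, which selected them, 0.85 in NOTCH1KO and 0.32 in NOTCH2KO. Of the 82 coding genes without overlap, 67 (81.7%) were above the range in NOTCH1KO, against 20.6% of all tested coding genes without overlap. In NOTCH2KO 59 (72.0%) were above it, against 38.9%.

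**Figure D5:**
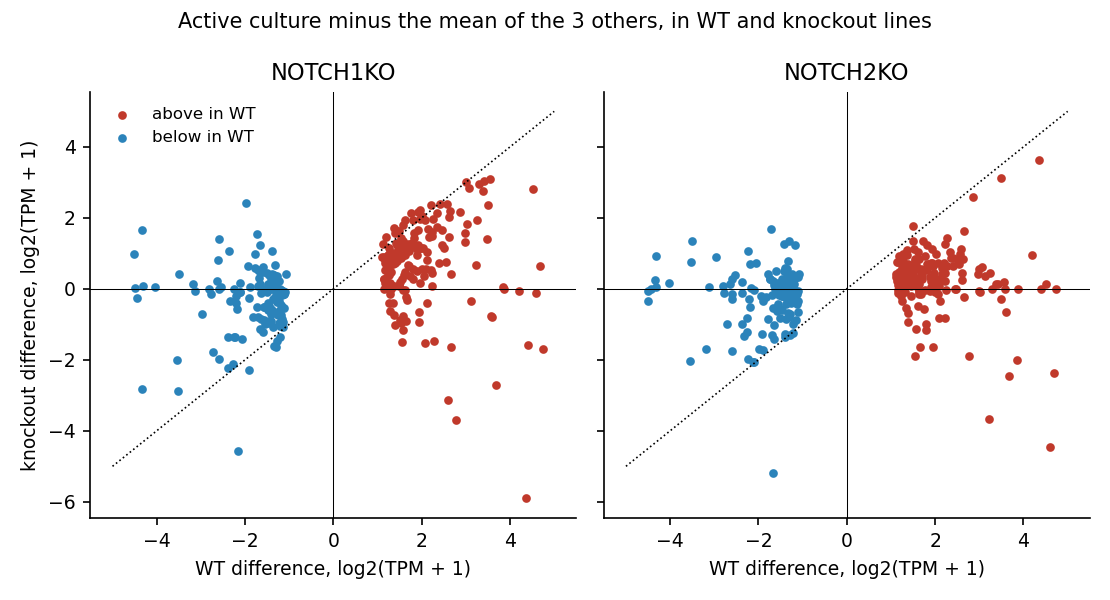
Active culture minus the mean of the 3 other cultures, in log2(TPM + 1), in WT (horizontal) and in NOTCH1KO or NOTCH2KO (vertical), for the 168 genes above (red) and the 134 below (blue) by the margin in WT, 1 point a gene, with the dotted line at equal differences. The red points have a median of 0.85 in NOTCH1KO and 0.32 in NOTCH2KO, and the blue points -0.16 and -0.09.

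The genes with the largest margins in WT differed between the lines. PDGFRB had 66.0 TPM in NOTCH1KO in the active culture, against 25.7 in Fc DMSO, 11.5 in Fc DAPT and 14.8 in Jagged1 DAPT, and in NOTCH2KO 7.34 TPM, against 6.26, 5.17 and 4.07. NOTCH3 had 7.00 TPM in NOTCH1KO in the active culture, against 1.79, 0.107 and 0.208, and in NOTCH2KO 0.237 TPM, against 0.246, 1.33 and 0.186. HEY1 had 31.5 TPM in NOTCH1KO in the active culture, against 7.85, 4.64 and 3.81, and in NOTCH2KO 18.3 TPM, against 11.0, 10.1 and 13.1. In NOTCH1KO the active culture was thus the highest of the 4 in these genes and the steady state second, as in WT, and in NOTCH2KO NOTCH3 was inside the range. PTGS2 was above the range in all 3 genotypes: it had 189.8 TPM in NOTCH2KO in the active culture, against 86.9 in Fc DMSO, 49.0 in Fc DAPT and 111 in Jagged1 DAPT, and in NOTCH1KO 181 TPM, against 77.7, 47.1 and 57.1. GREM1 had 248 TPM in NOTCH1KO in the active culture, against 206, 175 and 134, and in NOTCH2KO 81.5 TPM, against 89.5, 81.8 and 62.5, so that its margin of 1.96 in WT was 0.27 in NOTCH1KO and 0 in NOTCH2KO.

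The genes below by the margin in WT were read in the same way. Of the 134, 50 (37.3%) were below the range in NOTCH1KO, where 26.3% of all tested genes were, and 49 (36.6%) in NOTCH2KO, where 23.9% were. By a margin of 1 they were 11 (8.21%, against 0.709%) and 13 (9.70%, against 0.596%), and the median differences were -0.16 and -0.09. GALNT3 had 0.497 TPM in NOTCH1KO in the active culture, against 1.82 in Fc DMSO, 3.58 in Fc DAPT and 3.31 in Jagged1 DAPT, and in NOTCH2KO 4.22 TPM, against 7.86, 7.86 and 9.18. NPPB was listed at 0 in NOTCH1KO in the active culture too, against 3.60, 3.07 and 5.16 TPM, and had 3.53 TPM in NOTCH2KO, against 11.5, 26.8 and 8.43. For these genes all 3 genotypes had the lowest value in the active culture.

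The active culture was tested over the 8 knockout libraries with limma, with a term for the line and 5 residual degrees of freedom. The Fc DMSO, Fc DAPT and Jagged1 DAPT cultures entered as a single group, so differences between them are part of the error. A difference in response between the lines is part of it too, and the p-values do not measure a spread of replicates. Of the tested genes 3 (0.0170%) passed an adjusted p of 0.05, 1 higher and 2 lower, and 0 of these were among the 168 or the 134 genes. The count at an unadjusted p under 0.05 was 1286. Of the 168 genes, 71 (42.3%) were higher at an unadjusted p under 0.05, against 4.13% of all tested genes, and of the 134 genes 25 (18.7%) were lower, against 3.17%. With 1 of the 2 active knockout libraries left out, the other stands alone and is assumed to vary like the other cultures, so the calls describe that library. Without NOTCH2KO Jagged1 DMSO, limma put 20 genes (0.114%) higher and 21 lower, and 6 of the 20 were among the 168, namely PPEF1, ARHGAP36, C10orf128, ELOVL7, TNFSF10 and NCOA7. Without NOTCH1KO Jagged1 DMSO, it put 6 genes (0.0341%) higher and 14 lower, and 0 of these 6 were among the 168.

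The WT difference minus the mean knockout difference was fitted over all 12 libraries with limma, with 7 residual degrees of freedom and the active WT library on its own. Since this fit uses the WT values that chose the genes, and takes the spread of the active WT culture from the other libraries, its results are a description and test nothing about them. It called 14 genes (0.0795%), 5 more positive in WT and 9 more negative, all of them among the 168 or the 134, and 9 were annotated pseudogenes. Of the 14, the named genes were ZNF768, COMMD3-BMI1, POTEE, MLEC and TVP23C-CDRT4. Against NOTCH1KO alone it called 27 genes (0.153%) and against NOTCH2KO alone 26 (0.148%). Against NOTCH2KO, the called genes included ARHGAP36, ELOVL7 and PPEF1, with WT minus NOTCH2KO differences of 3.11, 2.36 and 4.40 on the log2 scale. MLEC, which encodes the endoplasmic reticulum lectin malectin, had 69.5 TPM in the active WT culture, against 21.5, 18.7 and 30.2, and in the active knockout cultures 17.9 TPM in both lines, against 52.8, 41.0 and 68.0 in NOTCH1KO and 66.0, 79.8 and 64.0 in NOTCH2KO. It was the highest of its genotype in WT and the lowest in both knockout lines, and was named after its values were seen. The 17.9 TPM of the active knockout cultures was close to the 18.7 TPM of WT Fc DAPT. The 69.5 TPM of the active WT culture lay within the range of the other knockout cultures. Whether MLEC switches between levels, as MEX3D did, was not tested. NOTCH3, HEY1, JAG1 and PDGFRB did not pass in these fits, which does not show that their response was alike in the lines.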

How the data were processed

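RNA of 12 DAOY cultures was measured, per the labels from stranded poly-A TruSeq libraries sequenced on a HiSeq2500. The submitters' processing notes name bcl2fastq 2.17, CASAVA and GRCh37. Which aligner, quantifier, annotation and strand setting were used is not given in the sources used here. Deposited by the authors were TPM values, which correct for gene length and library size. The FPKM values the authors deposited are a fixed multiple of TPM within a library. The coverage values deposited by the authors are the mean read depth per base. Depth was estimated from the commonest ratio of coverage to FPKM and the read length.

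TPM of an identifier listed several times was summed. Genes averaging 1 TPM or more were analysed as log2(TPM + 1) in Python 3.11.15 and, with a mean-variance trend, limma 3.58.1 in R 4.3.3, and p-values were adjusted after Benjamini and Hochberg over all tested genes. The fits measure spread among these libraries. Except in the fit with a term for each culture, the cultures besides the active culture entered as a single group. Gene types came from GENCODE release 29, which matched 52526 identifiers, coordinates from the deposited tables, and promoters from RefSeq (GRCh38.p14). The fits were first checked on simulated libraries.

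The members, the 35 gene lists and the tests were chosen with earlier results of these data known. Named genes were the Notch genes, EPAS1, HIF1A, the 15 largest margins above and 15 below among genes with at least 5 TPM in a WT library (clone names, antisense and small RNAs and pseudogenes left out), and up to 4 members of each list with the largest difference, other names being marked as chosen after their values were seen or given with their list. Other settings were a pseudocount of 0.1, no filter, a mean TPM of at least 5, FPKM, median-centred libraries, the highest row of an identifier, other margins, no trend, a term for each culture and each library left out. Coverage, coding genes without same-strand overlap, each knockout line alone and the margin rule within the knockout lines were alternatives chosen after seeing the data.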

Additional observations from a re-analysis of the deposited data

Results flagged for a closer look

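For 8 named genes the WT minus knockout difference passed the limma threshold. The WT side is 1 library, whose values had also chosen the genes, so the differences are given as a description with no p-value. Against the mean of both knockout lines the log2 differences were 3.75 for POTEE, 3.87 for COMMD3-BMI1, 5.55 for TVP23C-CDRT4, 3.26 for MLEC and -4.30 for ZNF768. Against NOTCH1KO they were 4.26 for POTEE, 3.87 for COMMD3-BMI1, 6.45 for TVP23C-CDRT4 and -4.18 for ZNF768. Against NOTCH2KO they were 3.25 for POTEE, 3.87 for COMMD3-BMI1, 4.66 for TVP23C-CDRT4 and -4.43 for ZNF768. POTEE, COMMD3-BMI1, TVP23C-CDRT4 and ZNF768 overlap another gene on the same strand, and MLEC, with 3.45 against NOTCH2KO, does not. Levels of MLEC close to those of the active cultures also occurred in other cultures.

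Of the others, PPEF1 differed by 4.40, ARHGAP36 by 3.11 and ELOVL7 by 2.36 between WT and NOTCH2KO. In NOTCH2KO the active culture had 0.113 TPM of PPEF1, 0.171 TPM of ARHGAP36 and 14.7 TPM of ELOVL7, against 0, 0.291 and 11.3 TPM in Fc DMSO.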

How the results depend on the processing

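The counts of genes past the margin moved with the settings. Upward, 168 genes became 266 with no filter on low values, 85 at a mean TPM of at least 5 and 82 among coding genes without same-strand overlap. Downward, 134 became 295 with a pseudocount of 0.1, 89 at a mean TPM of at least 5 and 58 among coding genes without overlap. At a margin of about 1.5-fold the counts were 466 above and 468 below, and at 4-fold 35 and 30. Leaving out 1 of the 3 other WT cultures, which can only widen a margin, gave between 217 and 286 genes above and between 191 and 270 below, with 286 and 229 without Fc DMSO and 260 and 270 without Jagged1 DAPT. All 168 and all 134 genes were kept in those fits by construction. For the knockout lines the 3 limma calls became 20 with no filter and 1 at a mean TPM of at least 5, and between 1 and 41 with a library left out: 41 without NOTCH2KO Jagged1 DMSO, 20 without NOTCH1KO Jagged1 DMSO, 8 without NOTCH1KO Fc DMSO, 7 without NOTCH1KO Fc DAPT, and 1 without NOTCH1KO Jagged1 DAPT or without NOTCH2KO Fc DMSO. For WT minus knockout the 14 calls became 260 with no filter, 27 against NOTCH1KO alone, 26 against NOTCH2KO alone, and between 11 and 27 with a library left out, highest without the active culture of NOTCH2KO (27) or of NOTCH1KO (26). The causes were not tested. Of 2056 values of 210 named genes under other settings, 2012 had the sign of the value reported and 0 called genes changed sign. A term for each culture, which matches the cultures across genotypes, gave 12 calls for WT minus knockout. Beyond that matching, no pairing of replicates was possible because the labels give no replicate numbers. With 1 library per culture, and 1 read worth about 0.1 TPM in a gene of 1 kb, differences among genes near 1 TPM rest on few reads.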

Other observations

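An abundant transcript took either of 2 levels without following the cultures. MT-ND4, a mitochondrially encoded subunit of respiratory complex I, had 3022 TPM in the active WT culture, against 1.96 in Fc DMSO, 1.89 in Fc DAPT and 2772 in Jagged1 DAPT, and 3488 TPM in NOTCH2KO Fc DMSO with between 1.61 and 2.04 TPM in the other 7 knockout libraries. AHNAK, a very large scaffold protein gene, had a margin of -1.30 with TPM and of -3.80 with coverage in the active WT culture.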
